A study of Mus musculus with 12 samples.

Results

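Transcripts of 9 iron genes were followed in mouse macrophages and osteoclasts with and without lipopolysaccharide (LPS), the bacterial cell wall component that activates the receptor TLR4. The 9 genes, Tfrc, Slc11a2, Steap3, Slc11a1, Fth1, Ftl1, Slc40a1, Lcn2 and Ireb2, were matched by symbol to the 54532 genes of the expression table for their roles in iron uptake, storage, export and sensing. The rule uses no measured value, but the set was proposed with earlier results of these data known. All 9 were found, and all 9 were among the 11335 genes tested (a level of 1 FPKM or more in 3 or more of the 12 libraries). Lcn2 passed that filter only through the 3 libraries of LPS-treated macrophages. Slc40a1 passed it only through macrophages, since too few osteoclast libraries reached 1 FPKM.

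Every sample came from wild-type (WT) mice. Bone marrow cells were expanded with CMG, a source of M-CSF, the growth factor that macrophages need. The macrophage groups were then kept in CMG alone, and the osteoclast groups received CMG with RANKL, the cytokine that drives macrophage precursors to fuse into bone-resorbing osteoclasts, at 100 ng/mL by the sample labels. On day 5 cells of each type were left untreated or given 100 ng/mL LPS for 3 h. This gave macrophages, LPS-treated macrophages, osteoclasts and LPS-treated osteoclasts, with 3 libraries in each group. The sources used here do not say whether the 3 libraries of a group came from separate mice or cultures, so the p-values measure the spread between these libraries, which may be technical. These were bulk cultures, in which fewer cells of a type and less RNA per cell cannot be told apart.

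Cells take up most iron as transferrin bound to the transferrin receptor, encoded by Tfrc. In the endosome a STEAP reductase turns ferric into ferrous iron, which the transporter DMT1 (Slc11a2) moves into the cytosol. Iron not used at once is stored in ferritin, a shell of heavy (Fth1) and light (Ftl1) chains, and ferroportin (Slc40a1) is the known exporter of iron from cells. Osteoclasts are known for their many mitochondria, which consume iron, and macrophages for recycling iron from old red cells and for withholding it from microbes during infection.

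Several of these transcripts carry iron-responsive elements (IREs), hairpins bound by the iron regulatory proteins IRP1 (Aco1) and IRP2 (Ireb2) when iron is scarce. A bound hairpin in a 5′ untranslated region (UTR) blocks translation, and bound hairpins in the 3′ UTR of Tfrc protect the transcript from decay. A search for a C, 5 free bases and the loop CAGTGN, with those 5 bases paired to the 5 after the loop (G-T pairs allowed), found 7 such sites in the annotated UTRs of 4 of the 9 genes. The same search matched the 5′ UTR of 0.11% of 20916 genes and the 3′ UTR of 0.475% of 21045 genes. The sites are printed 5′ to 3′ on the gene's strand in GRCm38, with the 6 loop bases in capitals, because Tfrc differs from the ferritin and ferroportin transcripts in where they lie.
Fth1, 5′ UTR, chr19:9982732-9982760, plus strand: ttcctgcttcaaCAGTGCttgaacggaac
Ftl1, 5′ UTR, chr7:45459779-45459807, minus strand: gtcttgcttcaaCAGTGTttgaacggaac
Slc40a1, 5′ UTR, chr1:45925465-45925493, minus strand: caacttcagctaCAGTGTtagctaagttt
Tfrc, 3′ UTR, chr16:32631219-32631247, plus strand: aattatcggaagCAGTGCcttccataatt
Tfrc, 3′ UTR, chr16:32631598-32631626, plus strand: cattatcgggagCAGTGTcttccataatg
Tfrc, 3′ UTR, chr16:32631663-32631691, plus strand: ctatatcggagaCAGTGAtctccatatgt
Tfrc, 3′ UTR, chr16:32631710-32631738, plus strand: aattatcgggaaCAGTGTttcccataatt
The annotated UTRs of Slc11a1, Slc11a2, Lcn2, Steap3 and Ireb2 held no match, which says only that no loop of these letters with 5 fully paired stem bases was found there, since a site with an imperfect stem would be missed. A match is a description of the sequence, and no measurement here bears on whether a site was bound.

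Levels are given as FPKM, fragments per kilobase of exon and per unit of library size, as the authors deposited them. Between 15651770 and 20281456 reads per library were assigned to genes, as recovered from the steps of the FPKM values. Mitochondrial transcripts took 1.27% to 1.62% of the reads in macrophage libraries and 5.16% to 6.18% in osteoclast libraries. The cell types carried their labels' markers: 10 osteoclast markers such as Ctsk and Acp5 summed to 29220 to 32220 FPKM in osteoclast libraries and to 16.3 to 29.0 FPKM in macrophage libraries. The summed FPKM of all genes was 255852 to 261584 in untreated macrophages and 399796 to 408994 after LPS, so that a value rescaled to the same total in each library (TPM) moves down with LPS. The median log2 LPS effect over all tested genes in macrophages was 0.02 as deposited and -0.55 after TPM scaling, and member values whose direction turns with the scaling are named as such.

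**Figure D1:**
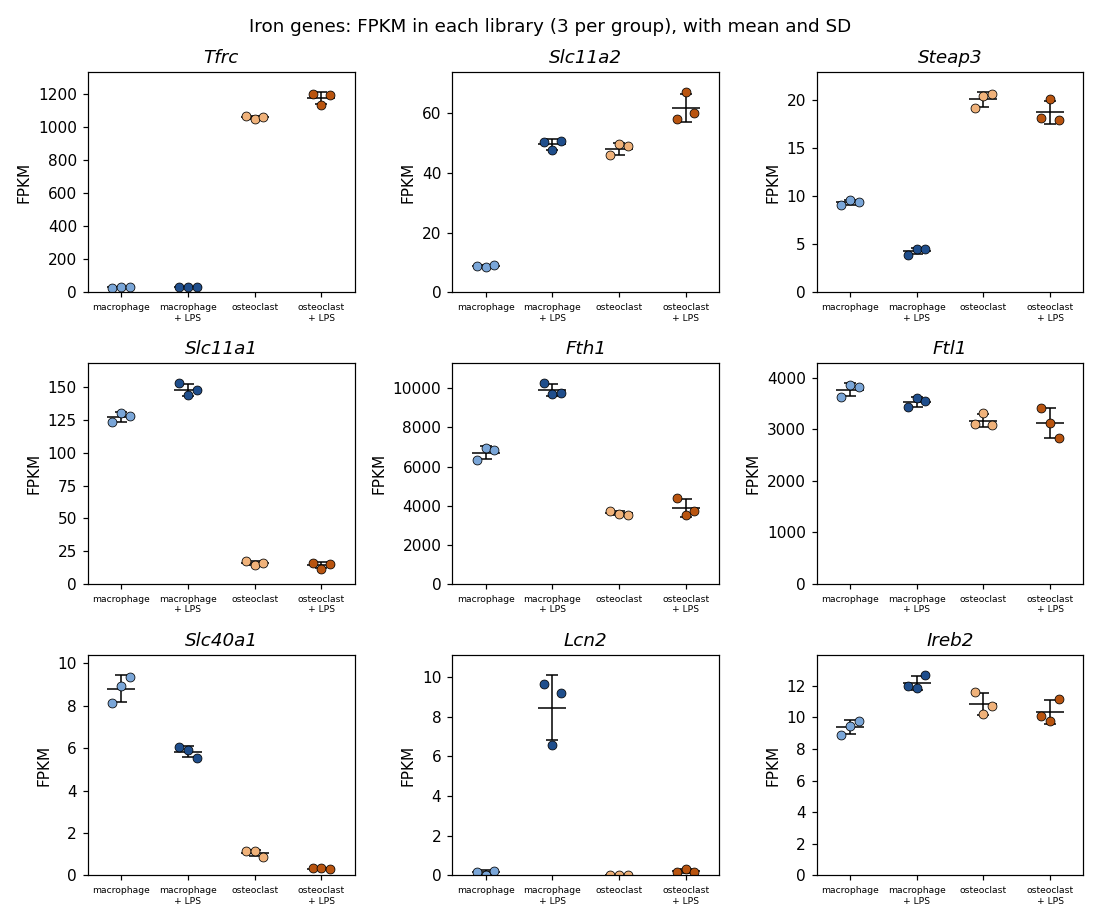
FPKM of the 9 iron genes (y axes, each from 0) in each of the 12 libraries, 3 per group; points are libraries, and the horizontal bar and whiskers are the mean and SD. Tfrc lay above 1049 FPKM in every osteoclast library and below 33.6 FPKM in every macrophage library, while Slc11a2 was at 47.6 to 50.7 FPKM in LPS-treated macrophages and at 45.9 to 49.6 FPKM in untreated osteoclasts.

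The first comparison was between untreated osteoclasts and untreated macrophages. Osteoclasts held far more Tfrc and more Slc11a2 and Steap3, which serve transferrin iron uptake, and less ferroportin, less NRAMP1 (Slc11a1) and less of both ferritin chains. Of the 9 genes 8 passed the test (limma, Benjamini-Hochberg adjusted over all tested genes, adjusted p under 0.05), 4 higher and 4 lower in osteoclasts, and for all 9 the 3 libraries of one group did not overlap those of the other. Slc40a1, among the 4 lower, passed the filter only through macrophages. The background was high, since 77.8% of all tested genes passed in this comparison, 38.8% higher and 39% lower, and 81.4% did not overlap, so that the share of members called is near that of all genes. After TPM scaling 3 members were higher and 6 lower, with Ireb2 on the other side, while 9217 of the 11335 tested genes were called and their median moved to -0.38. The median log2 difference of the 9 was -0.20 against 0.00 over all tested genes.

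Tfrc (chr16:32608920-32632794) was at 28.5, 31.9 and 30.5 FPKM in the 3 macrophage libraries and at 1066, 1049 and 1059 FPKM in the 3 osteoclast libraries. Every osteoclast library thus lay far above every macrophage library. The means, 30.3 ± 1.72 and 1058 ± 8.71 FPKM (SD, n = 3), differed 34.9-fold, a log2 difference of 5.08 (SE 0.04, adjusted p = 3.9e-16). It was the largest rise among the 9 genes, and under the alternatives run it ranged from 4.70 to 5.13.

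Slc11a2 (chr15:100387898-100425072), the endosomal ferrous iron transporter, was at 8.77, 8.67 and 9.17 FPKM in macrophages and at 45.9, 49.6 and 49.0 FPKM in osteoclasts. The groups were apart by far more than their spread, with means of 8.87 ± 0.264 and 48.1 ± 2.00 FPKM. The difference was 5.43-fold (log2 difference 2.32, SE 0.06, adjusted p = 2.84e-12). Steap3 (chr1:120190757-120272705), the ferrireductase of transferrin endosomes, rose from 9.04, 9.64 and 9.34 FPKM in macrophages to 19.2, 20.4 and 20.6 FPKM in osteoclasts. All osteoclast libraries were higher, 2.15-fold on the means (log2 difference 1.03, SE 0.06, adjusted p = 8.32e-09).

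Slc11a1 (chr1:74375195-74386062) encodes NRAMP1, the metal transporter of phagosomes that limits the growth of ingested microbes. It stood at 123, 130.4 and 128 FPKM in macrophages and at 17.2, 14.2 and 15.6 FPKM in osteoclasts. No library of one type came near the other, and osteoclasts held 12.3% of the macrophage level (log2 difference -2.94, SE 0.10, adjusted p = 5.8e-11). Slc40a1 (chr1:45908068-45926523), ferroportin, was at 8.10, 8.94 and 9.36 FPKM in macrophages and at 1.16, 1.13 and 0.883 FPKM in osteoclasts. Osteoclasts thus held 12.03% of the macrophage level (log2 difference -2.25, SE 0.07, adjusted p = 2.57e-11), on 135 to 193 reads per osteoclast library. The p-value is that of the filtered fit, which Slc40a1 entered only through macrophages, where it was higher.

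Markers of macrophages moved with these falls. The 8 macrophage markers summed to 13342 to 13404 FPKM in macrophages and to 2849 to 3302 FPKM in osteoclasts, none of the 8 was at 0 in osteoclasts, and 7 of the 8 stayed at or above 1 FPKM there. Osteoclasts held 11.7% of the macrophage level of Lyz2, 7.74% of Adgre1, 9.22% of Mertk, 0.877% of Mrc1 and 0.342% of Cx3cr1, but 24.3% of Itgam, 70.4% of Csf1r and 209% of Cd68. The values for Slc11a1 and Slc40a1 lie within that range, and the part that remaining macrophages had in them was not tested. Stromal markers were also lower in osteoclasts: 7 of them summed to 26.1 to 36.0 FPKM in untreated macrophages, mostly Col1a1 and Col1a2, and to 0.621 to 0.945 FPKM in untreated osteoclasts.

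The ferritin chains were the most abundant of the 9 transcripts in FPKM in every group. Fth1 (chr19:9980598-9985098), the heavy chain with the ferroxidase activity, was at 6352, 6966 and 6840 FPKM in macrophages and at 3719, 3558 and 3530 FPKM in osteoclasts. Osteoclasts were lower in every library and held 53.6% of the macrophage level (log2 difference -0.90, SE 0.08, adjusted p = 3.39e-07). Ftl1 (chr7:45457944-45459884), the light chain that aids iron core formation, was at 3627, 3859 and 3815 FPKM in macrophages and at 3106, 3307 and 3085 FPKM in osteoclasts. This was a smaller fall, to 0.841 of the macrophage mean (log2 difference -0.25, SE 0.07, adjusted p = 0.00379), and it was not called when genes of all levels entered the fit (adjusted p = 0.114). Over the alternatives the log2 difference ranged from -1.76 to -0.87 for Fth1 and from -1.07 to -0.23 for Ftl1.

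Ireb2 (chr9:54863789-54912530), which encodes IRP2, was at 8.89, 9.47 and 9.76 FPKM in macrophages and at 11.6, 10.2 and 10.8 FPKM in osteoclasts. The difference was small (log2 difference 0.19, SE 0.06, adjusted p = 0.0112). It was not called without osteoclast library 1 (0.15, adjusted p = 0.0538), and after TPM scaling it had the opposite sign, at -0.20. Lcn2 (chr2:32384633-32388252), lipocalin 2, which binds the siderophores that bacteria use to take up iron, was near the detection limit in both. It had 12, 2 and 13 reads in macrophage libraries and 0 reads in all 3 osteoclast libraries. Taking 3 reads per library as the floor, the macrophage mean was at least 2.30-fold higher, though macrophage library 2, with 2 reads, lay below that floor. The fitted difference was not called (log2 difference -0.20, SE 0.12, adjusted p = 0.152). That call changed with the pseudocount: at 0.1 it was -1.22 (adjusted p = 0.00558).

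In macrophages, LPS raised Slc11a2 and Lcn2 and lowered Steap3 and ferroportin under every scaling tried. Fth1, Ireb2 and, by little, Tfrc were higher with LPS as deposited and had the opposite sign after TPM scaling. Of the 9 genes 7 passed the test, 5 higher (Slc11a2, Lcn2, Fth1, Ireb2 and Tfrc) and 2 lower (Steap3 and Slc40a1), and none of the 9 overlapped between the groups. In the background 69.9% of all tested genes passed, 36.8% higher and 33.1% lower, and 74% did not overlap, so that this share too is near that of all genes. Lcn2 is in the count of 7 but passed the filter only through LPS-treated macrophages, and of the other 8 genes 6 were called. The split moved with the scaling, to 2 higher and 6 lower after TPM scaling, where 9730 of the 11335 tested genes were called with a median of -0.55. It was 2 higher and 5 lower after quantile normalization, where 8244 genes were called with a median of -0.14. The median log2 effect over the 9 was 0.22, beside 0.02 over all tested genes.

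Slc11a2 was at 50.4, 47.6 and 50.7 FPKM in LPS-treated macrophages, against 8.67 to 9.17 FPKM without LPS. The mean of 49.6 ± 1.76 FPKM was 5.59-fold above that of untreated macrophages (log2 effect 2.36, SE 0.06, adjusted p = 3.56e-12). As deposited, these libraries overlapped those of untreated osteoclasts, at 45.9 to 49.6 FPKM. As a share of the reads of a library they did not: Slc11a2 took 0.0245% to 0.0257% in LPS-treated macrophages and 0.0302% to 0.0323% in untreated osteoclasts. Of the exon bases of Slc11a2, 6.33% are shared with Gm5475 on the opposite strand, which was at no more than 0.334 FPKM on the mean of any group.

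Lcn2 rose from 0.197, 0.0324 and 0.223 FPKM to 9.62, 6.56 and 9.17 FPKM, with 322, 257 and 338 reads in the LPS-treated libraries. This was the largest ratio among the 9 genes, 56.0-fold on the means, though the untreated level rests on 27 reads in all (log2 effect 3.03 on the log2(FPKM + 1) scale, SE 0.12). Since Lcn2 passed the filter only through this group, the p-value given is that of the fit without a filter, to all genes above 0 in any library (adjusted p = 1.52e-08). Neutrophils are known to hold much lipocalin 2, and 10 neutrophil markers summed to 7.16 to 10.3 FPKM in untreated and 9.17 to 17.3 FPKM in LPS-treated macrophages. In LPS-treated libraries 1, 2 and 3, S100a9 was at 3.15, 8.34 and 7.36 FPKM, Ngp at 1.35, 3.67 and 3.26 FPKM, Camp at 0.103, 0.530 and 0.282 FPKM and S100a8 at 2.14, 3.28 and 4.10 FPKM, all lowest in library 1. Mmp8 was at 2.42, 1.30 and 1.88 FPKM, lowest in library 2, as Lcn2 was. The other 5 markers, Elane, Mpo, Ly6g, Cxcr2 and Retnlg, had at most 1 read in an LPS-treated macrophage library. The part of neutrophils in the Lcn2 level was not tested.

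Fth1 reached 10250, 9698 and 9739 FPKM after LPS, above all 3 untreated libraries. The mean was 1.47-fold higher (log2 effect 0.56, SE 0.08, adjusted p = 3.57e-05), but the direction depends on the scaling: the effect was -0.089 after TPM scaling and 0 after quantile normalization, which set Fth1 to the same rank value. Ftl1 did not rise with it. Its libraries were at 3432, 3611 and 3546 FPKM after LPS against 3627, 3859 and 3815 FPKM before, and the effect was not called (log2 effect -0.09, 95% interval -0.24 to 0.05, adjusted p = 0.219). After TPM scaling and after quantile normalization a fall of Ftl1 was called, at -0.74 and -0.91.

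The ratio of Fth1 to Ftl1 reads within a library is not moved by a scaling with 1 factor per library, such as TPM, though quantile normalization can move it. It was 1.13, 1.16 and 1.17 in untreated macrophages and 1.74, 1.78 and 1.93 after LPS, listed from low to high. All LPS-treated libraries thus had the higher ratio, with means of 1.15 ± 0.0184 and 1.81 ± 0.103 (SD, n = 3, two-sided exact permutation p = 0.1, the smallest that 3 against 3 can give). In osteoclasts the ratio was lower, 0.695, 0.740 and 0.774 without LPS and 0.736, 0.837 and 0.850 with LPS. The osteoclast groups overlapped (exact permutation p = 0.3), and both lay below the macrophage group of the same treatment (exact permutation p = 0.1 for each). A ratio within a library shows that the chains changed unequally and not which one changed.

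Both ferritin transcripts together took 1.35% ± 0.0455 of the reads in untreated macrophages, 1.07% ± 0.0140 in LPS-treated macrophages, 0.757% ± 0.0184 in osteoclasts and 0.748% ± 0.0625 in LPS-treated osteoclasts (SD, n = 3). Ferritin genes have processed copies elsewhere in the genome, and reads could be split between them. The copy with the most signal, Ftl1-ps1, was at 20.5 ± 0.822 FPKM in untreated macrophages. The Ftl1 exons share 355 bases, 26.5% of their length, with Gm10252 on the opposite strand, which was at 0.694 FPKM or less on the mean of any group. Whether reads were counted by strand is not given in the sources used here.

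Steap3 fell to 3.92, 4.50 and 4.53 FPKM from 9.04 to 9.64 FPKM. Every LPS-treated macrophage library was lower, at 0.462 of the untreated mean (log2 effect -0.96, SE 0.06, adjusted p = 2.37e-08). Slc40a1 fell to 6.05, 5.90 and 5.55 FPKM, below all untreated libraries and at 0.663 of their mean (log2 effect -0.52, SE 0.07, adjusted p = 2.88e-05). Both falls kept their direction and their call under every alternative in which they were tested.

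The remaining effects in macrophages were small and turned with the scaling. Ireb2 was between 11.9 and 12.7 FPKM after LPS, above the untreated libraries (log2 effect 0.35, SE 0.06, adjusted p = 2.46e-04), and at -0.26 after TPM scaling. Tfrc was at 33.1, 33.5 and 32.6 FPKM after LPS (log2 effect 0.12, SE 0.04, adjusted p = 0.0199). This Tfrc call was lost without untreated library 1 (adjusted p = 0.0920) or LPS-treated library 2 (adjusted p = 0.0611), and the direction turned after TPM scaling (-0.51) and quantile normalization (-0.40). Slc11a1 was at 153, 144 and 148 FPKM, above all untreated libraries, but did not pass the test (log2 effect 0.22, 95% interval 0.00 to 0.44, adjusted p = 0.0691), and it too turned after TPM scaling (-0.43) and quantile normalization (-0.68).

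**Figure D2:**
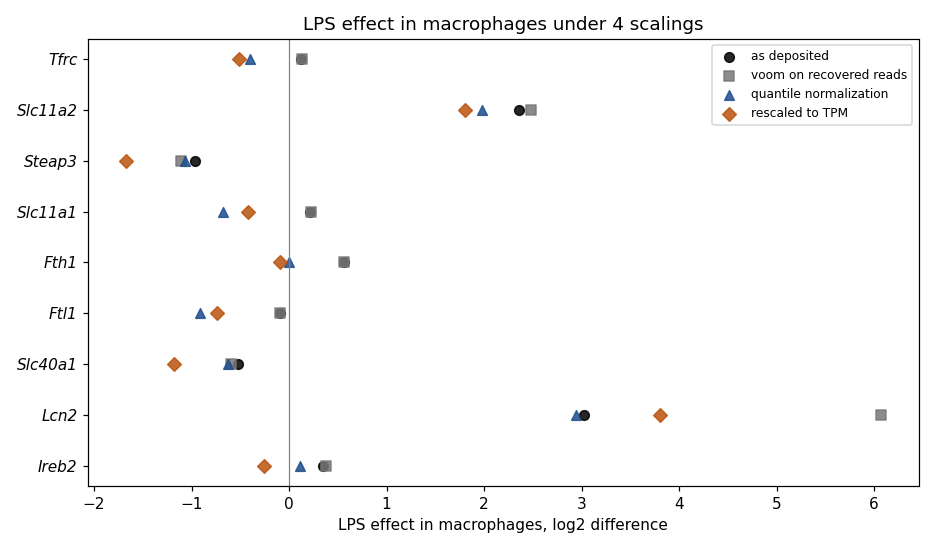
LPS effect in macrophages (x axis, log2 difference) for the 9 iron genes (y axis) as deposited, with voom on recovered reads, after quantile normalization and after TPM scaling; each mark is 1 estimate over 3 against 3 libraries. Slc11a2 and Lcn2 stayed above 0 and Steap3 and Slc40a1 below 0 in all 4, while Tfrc, Slc11a1, Fth1 and Ireb2 had a value below 0 after TPM scaling.

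In osteoclasts after the same 3 h of LPS, ferroportin fell, Slc11a2 and Tfrc rose slightly, and the other 6 did not pass the test. The count of 3 of 9 called, 2 higher and 1 lower, stands beside a background of 17.7% of all tested genes, 11.1% higher and 6.59% lower. The libraries of 4 of the 9 genes did not overlap, against 34% of all tested genes. The median log2 effect over the 9 was -0.02, beside 0.01 over all tested genes.

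Slc40a1 was at 1.16, 1.13 and 0.883 FPKM in untreated osteoclasts and at 0.354, 0.332 and 0.286 FPKM after LPS, on 63, 46 and 47 reads. All LPS-treated libraries were below all untreated ones. The mean fell to 0.306 of the untreated level, 3.27-fold lower, a log2 ratio of means of -1.71. On the log2(FPKM + 1) scale, which understates changes at such low levels, the effect was -0.63 (SE 0.07, adjusted p = 4.74e-05).

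Slc11a2 rose to 58.0, 67.1 and 60.0 FPKM from 45.9, 49.6 and 49.0 FPKM. No library overlapped, and the mean was 1.28-fold higher (log2 effect 0.35, SE 0.06, adjusted p = 8.63e-04). Tfrc was at 1201, 1133 and 1190 FPKM after LPS, above 1049 to 1066 FPKM before (log2 effect 0.15, SE 0.04, adjusted p = 0.0297). The groups did not overlap, but the call was lost in 5 of the 6 fits that left out 1 osteoclast library, with effects between 0.13 and 0.18 over the 6.

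Lcn2 was detected in LPS-treated osteoclasts with 9, 13 and 8 reads, at 0.173, 0.322 and 0.167 FPKM, and at 0 reads in all untreated ones. Against a floor of 3 reads per library it was at least 3.36-fold higher. It was not called on the log2(FPKM + 1) scale (log2 effect 0.29, SE 0.12, adjusted p = 0.131), but was called with a pseudocount of 0.1 (1.65, adjusted p = 0.00507) and with voom on the recovered reads (4.31, adjusted p = 0.00815).

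The other 5 genes overlapped between untreated and LPS-treated osteoclasts. Fth1 was at 4418, 3546 and 3735 FPKM after LPS (log2 effect 0.11, 95% interval -0.06 to 0.28, adjusted p = 0.381), and Ftl1 at 3410, 3115 and 2839 FPKM (-0.02, 95% interval -0.17 to 0.12, adjusted p = 0.839). Steap3 was at 18.1, 20.1 and 17.9 FPKM (-0.10, 95% interval -0.23 to 0.03, adjusted p = 0.295). Slc11a1 was at 15.9, 11.5 and 15.4 FPKM (-0.14, adjusted p = 0.390) and Ireb2 at 10.1, 9.77 and 11.2 FPKM (-0.07, adjusted p = 0.511).

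LPS-treated osteoclast library 2 was the lowest of its group for 6 of the 8 macrophage markers and all 6 LPS response genes, and the highest for the other 2 macrophage markers, Csf1r (286, 304 and 289 FPKM) and Cd68 (1351, 1446 and 1325 FPKM). Adgre1 was at 73.1, 42.5 and 70.9 FPKM, Lyz2 at 1843, 927 and 1590 FPKM and Acod1, an LPS-induced enzyme, at 213, 133 and 215 FPKM in libraries 1, 2 and 3. Among the 9 iron genes the same library was lowest of its group for Tfrc, Fth1, Slc11a1 and Ireb2 and highest for Slc11a2, Lcn2 and Steap3. Without it 3 of the 9 genes were again called, with an Slc11a2 effect of 0.29 (adjusted p = 0.00148) and an Slc40a1 effect of -0.64 (adjusted p = 2e-04). The Slc11a1 effect was then -0.0007 (adjusted p = 0.999), and the part of the markers in these values was not tested.

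**Figure D3:**
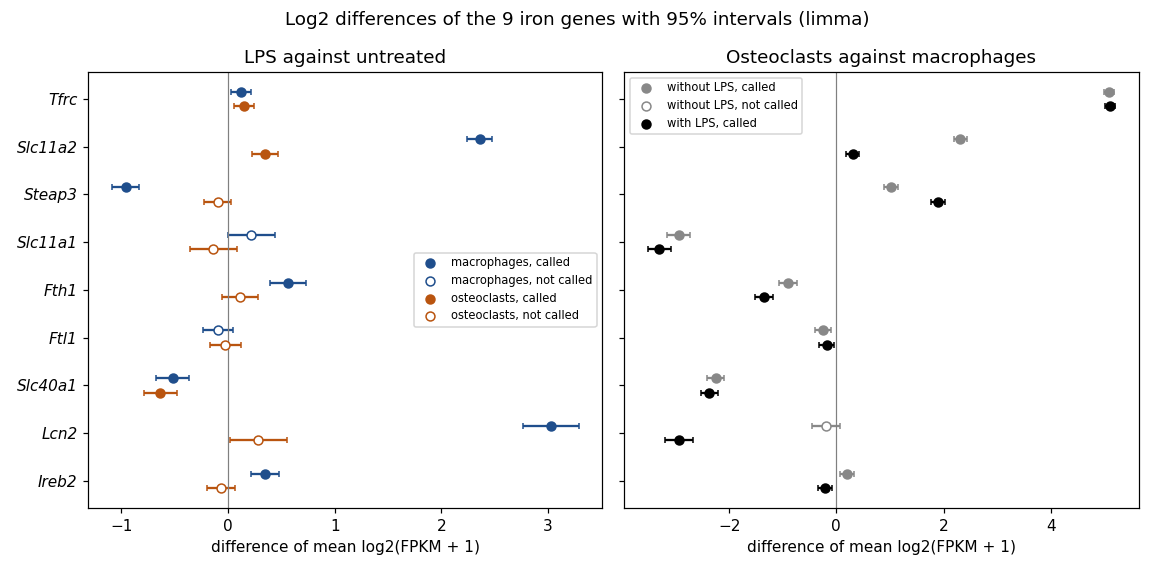
Log2 differences of the 9 iron genes (y axis) with 95% intervals from limma on the log2(FPKM + 1) scale (x axes), for LPS against untreated in each cell type on the left and for osteoclasts against macrophages without and with LPS on the right; filled points passed the test and open points did not. The LPS effects of Slc11a2 (2.36 and 0.35) and Lcn2 (3.03 and 0.29) were far apart between the cell types, and those of Tfrc (0.12 and 0.15) were close.

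Whether LPS acted differently in the cell types was tested as the osteoclast effect minus the macrophage effect. It differed for 6 of the 9 genes, 1 with a higher and 5 with a lower value in osteoclasts, beside 56.6% of all tested genes, 26.6% higher and 30% lower. Lcn2 is among the 6, and of the other 8 genes, none of which passed the filter through LPS-treated macrophages alone, 5 were called. After TPM scaling the split was 3 higher and 2 lower, with 8747 of the 11335 tested genes called and a median of 0.51. After quantile normalization it was 4 higher and 3 lower, with 6824 genes called and a median of 0.09. The rise of Slc11a2 was smaller in osteoclasts (difference -2.01, SE 0.08, adjusted p = 1.22e-09). The difference for Lcn2 was -2.74 (adjusted p = 1.22e-06 in the fit without a filter), and it was not called with voom on the recovered reads (-1.76, adjusted p = 0.240), where the untreated osteoclast level rests on 0 reads.

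Steap3 fell in macrophages and not detectably in osteoclasts, a difference of 0.86 (SE 0.08, adjusted p = 3.19e-06). The differences for Fth1 (-0.45, SE 0.11, adjusted p = 0.00371), Ireb2 (-0.41, SE 0.09, adjusted p = 0.00131) and Slc11a1 (-0.36, SE 0.14, adjusted p = 0.0484) were called as deposited. After TPM scaling these 3 had the opposite sign, at 0.13, 0.12 and 0.21, while the median difference over all tested genes moved from -0.01 to 0.51. The call for Slc11a1 was also lost in 9 of the 12 fits without 1 library, where its value ranged from -0.44 to -0.22, the latter without LPS-treated osteoclast library 2.

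The effects on Tfrc (0.03, 95% interval -0.10 to 0.16, adjusted p = 0.738) and Ftl1 (0.07, 95% interval -0.13 to 0.27, adjusted p = 0.548) were not shown to differ as deposited. After TPM scaling both were called, at 0.59 and 0.65. For Slc40a1 the answer depends on the scale of low values. With a pseudocount of 1 the difference was -0.12 (SE 0.10, adjusted p = 0.345), with 0.1 it was -0.86 (adjusted p = 6.73e-04) and with voom on the recovered reads -1.10 (adjusted p = 2.51e-04). On the ratio of means LPS left 0.663 of ferroportin in macrophages and 0.306 in osteoclasts.

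Under LPS all 9 genes passed the test between osteoclasts and macrophages, 3 higher (Tfrc, Steap3 and Slc11a2) and 6 lower, and none overlapped. Lcn2 and Slc40a1 are among the 6 lower. Lcn2 passed the filter only through LPS-treated macrophages and Slc40a1 only through macrophages. The background was 83.9% of all tested genes, 40.9% higher and 43% lower, with 83.6% not overlapping. The median of the 9 was -0.22 beside -0.02 over all genes. This comparison shares its libraries with those above, so the values are given side by side. Tfrc was 35.5-fold higher in osteoclasts, with a mean of 1174 ± 36.5 against 33.1 ± 0.490 FPKM (log2 difference 5.11, adjusted p = 4.19e-16). Steap3 was 4.32-fold higher (log2 difference 1.89, adjusted p = 2.14e-11), at 18.7 ± 1.24 against 4.32 ± 0.345 FPKM.

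Slc11a2, 5.43-fold apart without LPS, was 61.7 ± 4.80 FPKM in LPS-treated osteoclasts and 49.6 ± 1.76 FPKM in LPS-treated macrophages, a log2 difference of 0.31 (SE 0.06, adjusted p = 2.24e-04). Ferroportin was at 0.0555 of the macrophage level, 0.324 ± 0.0344 against 5.83 ± 0.256 FPKM (log2 difference -2.37, adjusted p = 1.16e-11 in the filtered fit, which it entered only through macrophages). Lcn2 was at 0.0261 of the macrophage level (-2.94, adjusted p = 9.34e-09 in the fit without a filter) and Fth1 at 0.394 (-1.35, adjusted p = 5.07e-09). Slc11a1 was at 14.3 ± 2.41 against 148 ± 4.49 FPKM (-3.30, adjusted p = 1.49e-11). In these LPS-treated libraries the 8 macrophage markers ran from 0.679% (Cx3cr1) and 0.814% (Mrc1) of the macrophage level through Mertk (7.01%), Adgre1 (9.28%), Lyz2 (11.2%), Itgam (17.6%) and Csf1r (69.7%) to Cd68 (175%), and their part in these values was not tested.

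Ftl1 (-0.18, adjusted p = 0.0214) and Ireb2 (-0.22, adjusted p = 0.00475) differed least. The Ftl1 call was lost without LPS-treated macrophage library 2 or 3 or LPS-treated osteoclast library 3, with adjusted p between 0.0580 and 0.0803, and both calls were lost after TPM scaling.

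The 12 libraries can also be put in order for each gene by FPKM as deposited. Tfrc ran from untreated macrophages up through LPS-treated macrophages, osteoclasts and LPS-treated osteoclasts, with a wide gap between the cell types. The order of the macrophage groups turned on the share of reads, 0.0221% to 0.0243% without LPS and 0.0161% to 0.0168% with LPS. Slc40a1 ran the other way across cell types, and within each type LPS-treated libraries were lower, so that the 4 groups did not overlap. Slc11a2 was lowest in untreated macrophages and highest in LPS-treated osteoclasts, and the groups between, LPS-treated macrophages and untreated osteoclasts, overlapped in FPKM but not in the share of reads given above. For Fth1 the order was untreated and LPS-treated osteoclasts, which overlapped, then macrophages, then LPS-treated macrophages, and the macrophage groups overlapped in the share of reads (0.690% to 0.745% without and 0.674% to 0.711% with LPS).

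Levels of different genes can be set side by side only per length, and here the length is the union of all annotated exons of a gene. That union is 3469 bases for Fth1, whose first annotated transcript is 929 bases long, 1340 against 968 for Ftl1, 9000 against 3370 for Slc40a1, 2623 against 915 for Lcn2 and 6185 against 4890 for Tfrc. FPKM of genes with a union far longer than their transcript are therefore low. On this scale Tfrc in osteoclasts, at 1058 FPKM, was below Ftl1 at 3166 and Fth1 at 3603 FPKM, and far above Slc11a2 at 48.1 FPKM and Steap3 at 20.05 FPKM.

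Of a wider list of 54 genes of iron handling, the 9 included, 43 were tested. LPS in macrophages raised 20, lowered 14 and left 9 not called (median 0.09), and LPS in osteoclasts raised 5, lowered 3 and left 35 not called (median 0.01). Untreated osteoclasts against macrophages had 18 higher, 20 lower and 5 not called (median -0.06), and the same with LPS 18 higher and 25 lower (median -0.47). The LPS effects of the cell types differed for 24 genes, 7 with a higher and 17 with a lower value in osteoclasts. These counts stand beside the backgrounds given above, from 17.7% called for LPS in osteoclasts to 83.9% between cell types with LPS. Lcn2, Cp and Hamp passed the filter only through LPS-treated macrophages. They are among the 20 raised, the 25 lower with LPS and the 17 lower differences. Bdh2 and Spic passed only through osteoclasts and are among the genes higher in osteoclasts. Slc40a1, Cd163, Trf and Slc39a8 passed only through macrophages and are among the genes lower in osteoclasts. Under TPM scaling LPS in macrophages raised 11 and lowered 30 of the 43, and the difference of the effects was higher for 25 and lower for 10, so that these splits follow the scaling. Over all 11335 tested genes 9730 and 8747 were then called, with medians of -0.55 and 0.51. Without LPS the cell types differed by 15 higher and 25 lower genes of the list after TPM scaling, beside 9217 of all tested genes called and a median of -0.38.

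Among genes of iron uptake outside the 9, Steap4, a plasma membrane metalloreductase, had the largest log2 difference between untreated cell types (4.87, SE 0.07, adjusted p = 3.44e-14). It was at 28.5 ± 0.863 FPKM in osteoclasts and at 2 reads in all in the 3 untreated macrophage libraries, at least 687-fold higher in osteoclasts against a floor of 3 reads per library. LPS raised it to 52.6 ± 1.41 FPKM in osteoclasts (log2 effect 0.86, adjusted p = 2.67e-06) and to 3.17 ± 0.447 FPKM in macrophages, at least 76.6-fold above the floor. Slc39a14, the ZIP14 transporter of iron not bound to transferrin, rose with LPS in macrophages from 7.84 ± 0.153 to 33.6 ± 2.13 FPKM (log2 effect 1.97, adjusted p = 2.96e-10). In osteoclasts it rose from 2.56 ± 0.238 to 3.87 ± 0.491 FPKM (log2 effect 0.45, adjusted p = 0.00143), and the difference of the effects was -1.52 (SE 0.11, adjusted p = 2.01e-07). Hfe, a partner of the transferrin receptor, was at 22.4 ± 0.846 FPKM in untreated macrophages and 0.998 ± 0.0713 FPKM in untreated osteoclasts (log2 difference -3.55, adjusted p = 1.44e-12). Hfe entered the fit through macrophages, and its osteoclast means lay under the 1 FPKM of the filter.

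Of 14 genes of haem uptake and recycling, 11 were tested. In osteoclasts without LPS 8 of them were lower and 3 higher (Flvcr1, Slc46a1 and Spic) than in macrophages, beside 39% lower and 38.8% higher among all tested genes. Spic passed the filter only through osteoclasts and Cd163 only through macrophages, each the cell type where it was higher. Hmox1, which breaks down haem and frees its iron, was at 556 ± 7.72 FPKM in macrophages, while osteoclasts had 75.3 ± 4.37 FPKM (log2 difference -2.87, adjusted p = 5.02e-11). LPS lowered it in both, to 343 ± 28.8 and 45.7 ± 6.995 FPKM (log2 effects -0.70, adjusted p = 3.6e-05, and -0.72, adjusted p = 2.36e-04). Over the alternatives the Hmox1 effect ranged from -1.63 to -0.66 in macrophages and from -0.81 to -0.59 in osteoclasts. Cd163, the haemoglobin scavenger receptor, was at 6.10 ± 0.142 FPKM in untreated macrophages and 0.108 ± 0.0185 FPKM in untreated osteoclasts.

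LPS in macrophages lowered 7 of these 11 haem genes and raised 3 (Blvrb, Spic and Bach1), beside 33.1% lower and 36.8% higher among all tested genes. Spic was low in macrophages, at a mean log2(FPKM + 1) of 0.10 without and 0.56 with LPS. After TPM scaling and quantile normalization LPS lowered 9 and raised 2, with Blvrb on the other side, while 9730 and 8244 of the 11335 tested genes were called in either direction, against 7921 as deposited. Flvcr1, a haem exporter, fell from 8.89 ± 0.671 to 4.20 ± 0.418 FPKM, and Cd163 to 3.11 ± 0.154 FPKM (log2 effects -0.93 and -0.79, adjusted p = 9.08e-08 and 9.95e-08). Bach1, the haem-sensing repressor of Hmox1 and ferritin genes, rose from 15.9 ± 0.698 to 128 ± 3.64 FPKM (log2 effect 2.94, adjusted p = 4.22e-13). In osteoclasts Bach1 went from 9.14 ± 0.396 to 6.95 ± 0.474 FPKM, a fall (log2 effect -0.35, adjusted p = 5.82e-04), and the difference of the effects was -3.29 (SE 0.07, adjusted p = 2.4e-11).

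Among export genes, Cp, the ferroxidase ceruloplasmin that helps ferroportin to load transferrin, rose in LPS-treated macrophages. It went from 0.418 ± 0.109 to 12.3 ± 4.23 FPKM, with libraries between 8.64 and 16.9 FPKM (log2 effect 3.19, SE 0.18). Cp, like Hamp, passed the filter only through LPS-treated macrophages, and the adjusted p of its rise in the fit without a filter was 2.53e-07. In osteoclasts Cp had 6 reads in all without LPS, 5 of them in 1 library, and 151 with LPS, so that no ratio is given, and the effect was not called (log2 effect 0.35, adjusted p = 0.214). Hamp, encoding hepcidin, the hormone that triggers the degradation of ferroportin, was at 0 reads in the 9 other libraries and at 32 reads in all in the 3 LPS-treated macrophage libraries. That is at least 5.92-fold above untreated macrophages against a floor of 3 reads per library.

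Among regulators and mitochondrial genes, Aco1 (IRP1) was at 11.8 ± 0.639 FPKM in untreated macrophages and reached 35.4 ± 1.06 FPKM in untreated osteoclasts (log2 difference 1.502, adjusted p = 2.12e-10). Bdh2, an enzyme linked to a mammalian siderophore, was at 0.493 ± 0.0741 and 23.4 ± 1.05 FPKM (log2 difference 4.03, adjusted p = 8.02e-11 in the fit without a filter, since Bdh2 passed the filter only through osteoclasts). Slc25a37, the mitochondrial iron importer mitoferrin 1, rose with LPS in macrophages from 14.1 ± 0.895 to 53.8 ± 1.65 FPKM and was at 3.38 ± 0.345 and 4.12 ± 0.979 FPKM in osteoclasts without and with LPS. The difference of its LPS effects was -1.65 (adjusted p = 3.41e-06). Between LPS-treated cell types the largest log2 differences outside the 9 genes were those of Bdh2 (4.22), Steap4 (3.69) and Flvcr1 (2.12) among genes higher in osteoclasts, and of Bach1 (-4.02), Hfe (-3.58) and Slc25a37 (-3.44) among genes lower there. Alas1, the first enzyme of haem synthesis, rose with LPS in osteoclasts from 17.2 ± 0.258 to 21.6 ± 0.333 FPKM (log2 effect 0.32, adjusted p = 3.28e-05).

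**Figure D4:**
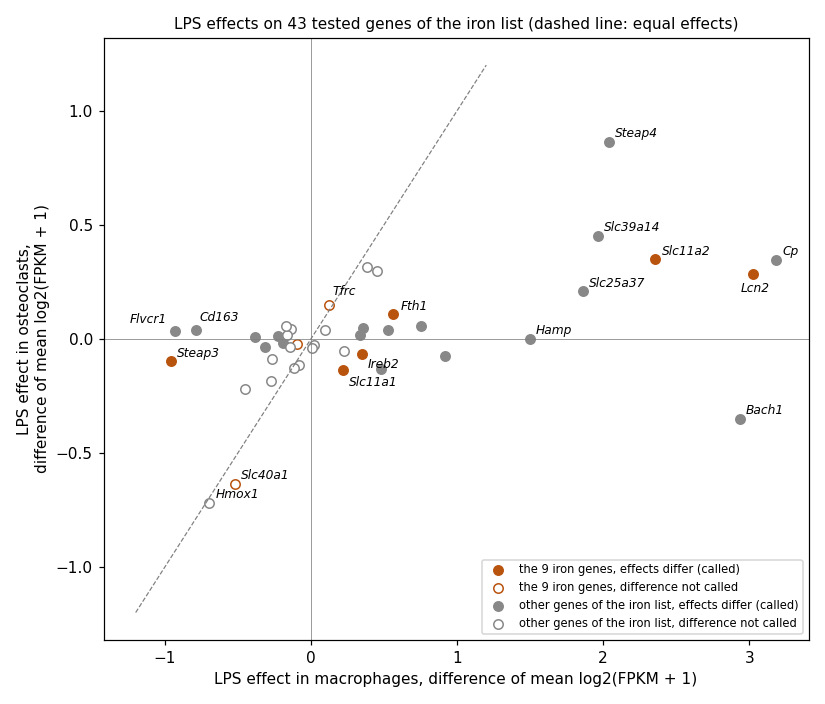
LPS effect in macrophages (x axis) against LPS effect in osteoclasts (y axis), both as differences of mean log2(FPKM + 1), for the 43 tested genes of the iron list; orange marks are the 9 iron genes, grey marks the others, filled marks those whose effects differed by the test, and the dashed line marks equal effects (the orange mark without a name is Ftl1). Slc11a2, Lcn2, Bach1 and Cp lie far to the right of the line, and Hmox1 and Slc40a1 lie below 0 on both axes.

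The genes whose levels ran most like those of each member over the 12 libraries were taken by Pearson's r of log2(FPKM + 1), among 5447 genes that spanned at least 1 log2 unit between group means. The 12 libraries share the 4 groups, so these values describe the group pattern. Tfrc was most like Chchd10, Ocstamp and Nyap2 (r = 0.99981, 0.99977 and 0.99971), of which Ocstamp encodes a protein needed for osteoclast fusion. Slc40a1 was most like B430306N03Rik, Kcnk13 and Hmox1 (r = 0.99716, 0.99603 and 0.99585), and Slc11a2 most like Syk, Stxbp3 and Spi1 (r = 0.99688, 0.99551 and 0.9954). Slc11a1 was most like Tmem106a (r = 0.9997), Fth1 like Snx4 (r = 0.99731), Lcn2 like Trim30b (r = 0.99819) and Steap3 like Golm1 (r = 0.998). Ftl1 and Ireb2 spanned less than 1 log2 unit between groups and were not compared.

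Promoter windows from RefSeq (GRCm38.p6, 300 bases around each start) were at hand for 7 of the 9 genes, in 12 windows. None held the NF-kB-like motif (GGG and TTTCC with 2 free bases between them) on either strand, which 1.63% of 32851 windows hold, or the interferon-type motif (GAAA repeated after 2 free bases, 3.44%). None held the antioxidant-type motif TGACNNNGC (12.4%). Absence of a match says only that these letters are not in these windows.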

How the data were processed

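RNA from 12 mouse libraries was made into NEBNext Ultra libraries and sequenced, per the labels' protocols. The deposited table holds FPKM, computed by the authors for 54532 Ensembl genes with all 12 libraries as columns. The submitters' processing notes list fastp, STAR, featureCounts, DESeq2 and the build mm10, and the role and settings of each are not given in the sources used here. Among 25854 genes above 0, 25015 (96.8%) had values that were whole reads within 0.02 in all libraries when multiplied by the union exon length of the GENCODE M21 annotation, and the other 839 gave whole reads by their own step. The denominators so recovered equal median-of-ratios size factors times a constant to within 0.0001%, that is, they are not library totals.

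From these values log2(FPKM + 1) was fitted with limma 3.58.1 in R 4.3.3 (4 group means, 12 libraries, empirical Bayes with a variance trend), for genes reaching 1 FPKM in 3 or more libraries, two-sided, with Benjamini-Hochberg adjustment over all 11335 tested genes and a threshold of 0.05. Alternatives were a pseudocount of 0.1, 2 other filters, TPM scaling, quantile normalization, only the groups compared, a replicate block, no variance trend, voom on the recovered reads, the ratio of means, and leaving out each library. All 9 members are named in every comparison, and of the wider list up to 3 called genes with the largest difference in each direction. Hamp, the Slc39a14 effect in macrophages and the differences of the effects for Slc39a14, Steap4 and Blvrb were added after values were seen. The 9 genes and the lists were chosen with earlier results of these data known. The IRE search, the promoter motifs and the Fth1 to Ftl1 read ratio were chosen after values were seen. Fits were tested on simulated data. Replicate numbers were not treated as pairs in the main fit. Deviations of same-numbered libraries correlated at -0.07 to 0.10, which does not decide whether they are pairs.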

Additional observations from a re-analysis of the deposited data

Results flagged for a closer look

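These genes are listed because LPS acted differently in macrophages and osteoclasts by the test of the difference itself, osteoclast effect minus macrophage effect on the log2(FPKM + 1) scale. Among the 9 iron genes the differences were -2.74 for Lcn2, -2.01 for Slc11a2, -0.45 for Fth1, -0.41 for Ireb2, -0.36 for Slc11a1 and 0.86 for Steap3. Those of Fth1, Ireb2 and Slc11a1 had the opposite sign after TPM scaling (0.13, 0.12 and 0.21), and that of Slc11a1 also after quantile normalization (0.46) and was not called in 9 of the 12 fits without 1 library. With voom on the recovered reads the Lcn2 difference was not called (-1.76, adjusted p = 0.240). Among the other genes of the iron list the 3 lowest differences were -3.29 for Bach1, -2.84 for Cp and -1.65 for Slc25a37, and the 3 highest 0.96 for Flvcr1, 0.82 for Cd163 and 0.39 for Aco1. Of the remaining genes named above, listed after their values were seen, the differences were -1.52 for Slc39a14, -1.50 for Hamp, -1.18 for Steap4 and -0.32 for Blvrb, the last with the opposite sign after TPM scaling (0.25) and quantile normalization (0.38). Steap4 and Hamp lay at the floor in untreated macrophages. Over the alternatives their differences ranged from -7.17 to -1.12 for Steap4 and from -5.16 to -1.32 for Hamp. The Cp difference was 0.013 (adjusted p = 0.996) with voom on the recovered reads, with 6 reads in all in untreated osteoclasts. Lcn2, Cp and Hamp entered the test only through LPS-treated macrophages, where they were high; without a filter their adjusted p were 1.22e-06, 1.91e-05 and 2.39e-04. The same test was passed by 56.6% of all tested genes.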

How the results depend on the processing

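The numbers of members called stayed within 1.5 times under every alternative: 5 to 8 for LPS in macrophages, 2 to 4 for LPS in osteoclasts, 7 to 9 for both comparisons of cell types and 4 to 7 for the difference of the effects. Over the wider list, 9 genes called as deposited for LPS in macrophages had the other sign after TPM scaling and 6 after quantile normalization. The cases below cover only the 9 members and other genes in the comparisons chosen for these checks. There, directions turned in 14 cases among values that passed the test as deposited or under the alternative. After TPM scaling the LPS effect in macrophages was -0.51 for Tfrc, -0.43 for Slc11a1, -0.089 for Fth1 and -0.26 for Ireb2. Ireb2 between untreated cell types was then -0.20, and the differences of the effects were 0.21 for Slc11a1, 0.13 for Fth1 and 0.12 for Ireb2. Quantile normalization gave -0.40 for Tfrc and -0.68 for Slc11a1 in macrophages and 0.46 for the Slc11a1 difference. The Blvrb difference was 0.25 after TPM scaling and 0.38 after quantile normalization. With voom the Cp difference was 0.013, on 6 reads in all in untreated osteoclasts. TPM scaling moves all genes by a shared amount per library; the cause of the other changes was not tested. Signs also changed among values called in neither: the Slc40a1 difference was 0.087 after TPM scaling, the Tfrc difference -0.011 without untreated macrophage library 2, and the Ftl1 effect in osteoclasts 0.0078 and 0.042 without untreated library 2 or LPS-treated library 3.

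Whether the replicate numbers pair the libraries is not known here. Same-numbered deviations correlated at -0.07 to 0.10 and different-numbered ones at -0.14 to 0.11. With 3 libraries a group these values cannot decide it. With the replicate number as a block, Slc11a1 in macrophages was called (0.22, adjusted p = 0.0425), Tfrc in osteoclasts was not (0.15, adjusted p = 0.0523), and the members called were 8, 2, 8, 9 and 6 in the 5 comparisons in the order LPS in macrophages, LPS in osteoclasts, cell types without and with LPS, and difference.

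Depth limits Lcn2 in 3 groups, Slc40a1 in LPS-treated osteoclasts, Cp and Hamp. With 3 libraries a group, small effects such as those of Tfrc and Ireb2 rest on few libraries.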
